A study of Mus musculus with 11 samples.

Results

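Toll-like receptors and the genes that sense bacterial lipopolysaccharide (LPS) were examined as a group of 10 genes, out of 19938 genes that had a probe set with a single symbol. The group holds the receptors Tlr1, Tlr2, Tlr3, Tlr4, Tlr7, Tlr8 and Tlr13, the LPS co-receptors Cd14 and Ly96, and the adaptor Myd88. They were chosen by symbol, and each had exactly 1 probe set. Whole-liver RNA of male C57/BL6 mice aged 8 to 9 weeks was hybridised to 1 Affymetrix mouse gene array per sample, 11 in all. Nemo/TNFR1 dKO livers (NemoΔhepa/TNFR1-/-, 3 arrays) lacked Nemo in hepatocytes and TNFR1 constitutively, leukocytes included. Nemo/TRAIL dKO livers (NemoΔhepa/TRAIL-/-, 2 arrays) lacked Nemo in hepatocytes and TRAIL constitutively. Nemo KO livers (NemoΔhepa, 3 arrays) lacked Nemo in hepatocytes alone, through a loxP-flanked allele whose Cre driver the sources used here do not name. WT livers (3 arrays) were wild type. All mice were fed chow, and no TNFR1-/- or TRAIL-/- group with intact Nemo was analysed here.

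Toll-like receptors are pattern recognition receptors of innate immunity. TLR1 pairs with TLR2 at the cell surface to bind bacterial lipoproteins, and TLR4 binds LPS together with MD-2, the product of Ly96, after CD14 has handed LPS over. TLR3, TLR7, TLR8 and TLR13 sit in endosomes and bind RNA: TLR3 double-stranded RNA, TLR7 and, as known from humans, TLR8 single-stranded RNA, and TLR13, which mice have and humans lack, bacterial ribosomal RNA. All of them except TLR3 signal through MyD88 towards the IκB kinase complex, whose regulatory subunit is Nemo. In the liver these receptors are known above all from Kupffer cells and other macrophages, which meet gut-derived bacterial products in portal blood, and hepatocytes make the LPS-binding protein Lbp.

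The promoters of 3 of the 4 receptors whose levels differed most from WT are shown first, with that of Myd88, whose level hardly differed, beside them. RefSeq windows on GRCm38.p6 were used for 6 of the 10 genes (7 windows), and the 250 bases before the annotated start are printed 5′ to 3′ on the gene's strand. The selection of these windows left out a chromosome, which the shares over all windows below did not. For Tlr4, Tlr7 and Ly96 the set of windows held no promoter. Capitals mark matches, on either strand, to the Ets core bound by PU.1 (GAGGAA), an interferon regulatory factor element (GAAA, any 2 bases, GAAA), AP-1 (TGANTCA), C/EBP (TTGCNNAA) or NF-κB (GGGA, any 2 bases, TTCC). The windows lie at chr5:64933559-64933808 (minus strand) for Tlr1, chrX:167264330-167264579 (minus) for Tlr8, chrX:106143025-106143274 (plus) for Tlr13 and chr9:119340019-119340268 (minus) for Myd88.
Tlr1: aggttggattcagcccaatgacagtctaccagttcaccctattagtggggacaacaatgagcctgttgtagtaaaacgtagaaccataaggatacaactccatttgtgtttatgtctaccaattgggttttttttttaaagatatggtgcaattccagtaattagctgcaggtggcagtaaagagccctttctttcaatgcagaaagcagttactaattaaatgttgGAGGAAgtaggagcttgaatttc
Tlr8: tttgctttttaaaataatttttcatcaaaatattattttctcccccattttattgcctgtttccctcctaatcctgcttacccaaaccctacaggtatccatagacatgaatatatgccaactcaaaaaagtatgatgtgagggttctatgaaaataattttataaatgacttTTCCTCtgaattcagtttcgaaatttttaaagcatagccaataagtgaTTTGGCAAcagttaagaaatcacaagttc
Tlr13: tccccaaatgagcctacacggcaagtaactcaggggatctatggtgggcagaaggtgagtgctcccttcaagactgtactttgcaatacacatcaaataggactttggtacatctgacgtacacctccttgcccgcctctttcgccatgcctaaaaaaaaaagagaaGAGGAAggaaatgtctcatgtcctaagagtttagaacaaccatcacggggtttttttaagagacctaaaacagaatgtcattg
Myd88: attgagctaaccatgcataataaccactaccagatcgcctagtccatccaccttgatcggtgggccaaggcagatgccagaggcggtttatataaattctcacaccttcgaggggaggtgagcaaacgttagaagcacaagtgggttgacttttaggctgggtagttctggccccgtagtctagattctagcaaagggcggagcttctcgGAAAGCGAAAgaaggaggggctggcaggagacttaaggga
The Tlr1 window holds the Ets core 23 bases before the start, the Tlr13 window 83 bases before it, and the Tlr8 window on the opposite strand 77 bases before it. The Tlr8 window also holds a C/EBP match 29 bases before the start, and the Myd88 window an interferon regulatory factor match 40 bases before it. Of the windows not printed, that of Tlr3 holds a C/EBP match and an NF-κB match, while that of Tlr2 and a second Tlr1 start hold none of the 5 motifs. Among all 32851 windows of this length, 23.3% hold the Ets core, 9.56% the C/EBP, 6.75% the AP-1, 2.98% the interferon regulatory factor and 1.21% the NF-κB letters. No motifs overlapped in the printed windows, and a match describes the letters only.

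Several facts of the whole series bear on these values. Albumin, the defining hepatocyte transcript, averaged between 13.85 and 13.90 log2 units in the 4 groups. The mean of 7 hepatocyte markers was 13.22 to 13.32 in Nemo/TNFR1 dKO, 13.24 to 13.29 in Nemo/TRAIL dKO, 13.25 to 13.26 in Nemo KO and 13.34 in each WT array, with Serpina1c called lower in Nemo/TNFR1 dKO (-0.25 ± 0.06, adjusted p = 0.0281 by limma). Ikbkg, which encodes Nemo, measured 8.20, 8.31 and 8.12 in Nemo/TNFR1 dKO, 8.28 and 8.22 in Nemo/TRAIL dKO, 8.34, 8.56 and 8.36 in Nemo KO and 8.65, 8.73 and 8.60 in WT. Every Nemo-deficient array thus lay below every WT array. The difference from WT passed in Nemo/TNFR1 dKO (-0.45 ± 0.08, adjusted p = 0.00818 by limma) and Nemo/TRAIL dKO (-0.41 ± 0.09, adjusted p = 0.0239 by limma). In Nemo KO it did not pass (-0.24 ± 0.08, adjusted p = 0.106 by limma). Tnfsf10, which encodes TRAIL, measured 6.23 and 6.11 in Nemo/TRAIL dKO and 6.86, 6.49 and 6.26 in Nemo KO (difference -0.37 ± 0.19, SE, adjusted p = 1 by limma). Tnfrsf1a, which encodes TNFR1, measured 10.04, 9.95 and 10.19 in Nemo/TNFR1 dKO and 10.19, 10.41 and 10.41 in Nemo KO. The difference was -0.27 ± 0.09 (adjusted p = 0.586 by limma). Neither difference from Nemo KO passed. In WT, Tnfrsf1a measured 10.09, 9.93 and 9.95, overlapping with Nemo/TNFR1 dKO (difference from WT 0.07 ± 0.09, adjusted p = 0.67 by limma). Tnfrsf1a was called higher than WT in Nemo KO (0.35 ± 0.09, adjusted p = 0.0401 by limma). The same held in Nemo/TRAIL dKO (0.43 ± 0.10, adjusted p = 0.0314 by limma). The sources used here do not say which part of each gene was deleted, so these probe sets may lie outside it. WT replicate 3 stood apart in 8 pancreatic acinar markers, whose mean was 11.69 log2 units there against 5.51 to 5.95 elsewhere. A code in the array names is common to Nemo KO and WT, while each double knockout has its own, so whatever it stands for cannot be told apart from the added knockouts. The array numbers also run in order of genotype.

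Across the 3 Nemo-deficient genotypes, 5 of the 10 genes rose against WT every time: Tlr1, Tlr4, Tlr7, Tlr8 and Tlr13. Tlr2 and Cd14 rose in Nemo KO and did not pass in the double knockouts, though no gene differed by the test between these genotypes. Ly96, Tlr3 and Myd88 passed in none of the 3. All differences below are in log2 units of the authors' normalised expression, from a limma fit over all 35556 probe sets and 11 arrays, and a gene was called at a Benjamini-Hochberg adjusted p below 0.05. Passing upward in all 3 comparisons was the case for 3.96% of all probe sets. The 3 comparisons share their WT arrays, so their counts are not independent of each other. In RNA from whole liver, more cells of a type and more RNA per cell cannot be told apart.

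**Figure D1:**
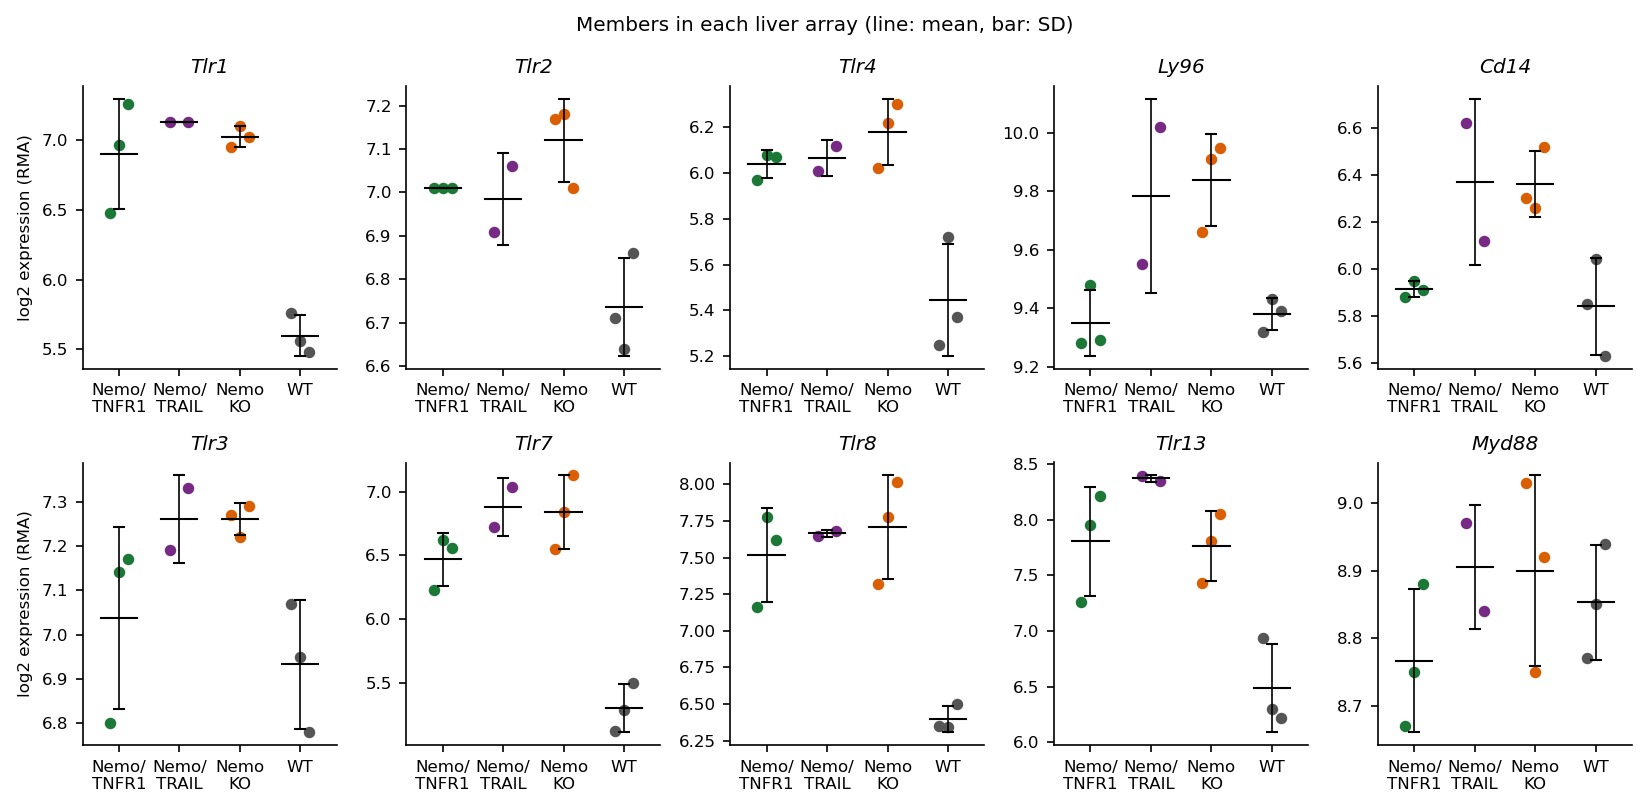
Log2 expression of the 10 genes (vertical axes, which do not start at 0 and differ between panels) in each of the 11 arrays, as points, with the group mean as a line and the SD as a bar, for Nemo/TNFR1 dKO, Nemo/TRAIL dKO, Nemo KO and WT. The panels of Tlr1, Tlr4, Tlr7, Tlr8 and Tlr13 show WT below all other arrays, those of Ly96 and Cd14 show Nemo/TNFR1 dKO at the height of WT, and that of Myd88 shows no separation.

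The first question was what loss of Nemo in hepatocytes changes. In Nemo KO against WT, 7 of the 10 genes rose and none fell, with a median difference of 0.63 over the 10 genes, against a median of -0.05 over all genes. The background was 9.29% of all probe sets called, and 6.08% of all probe sets called higher. In 9 of the 10 genes the Nemo KO arrays all lay above the WT arrays, which was the case for 12.8% of probe sets. Nemo/TRAIL dKO against WT gave 5 genes higher and none lower, with a median of 0.57, against a background of 7.55% of all probe sets called and 4.91% of all called higher. The groups did not overlap for 9 genes, as for 14.7% of probe sets. Nemo/TNFR1 dKO against WT also gave 5 genes higher and none lower, with a median of 0.43, against a background of 9.18% of all probe sets called and 5.83% of all called higher. There the groups did not overlap for 6 genes, as for 11.6% of probe sets. The counts rest in part on single arrays: 4 genes were called in Nemo KO without Nemo KO replicate 2, and 2 in Nemo/TRAIL dKO without its replicate 1, which leaves 1 array of that genotype. In Nemo/TNFR1 dKO the count was 3 without its replicate 2, 3 without its replicate 3, and 3 when the fit held these 2 groups only. WT arrays mattered too. Without WT replicate 3, the array high in acinar markers, 6, 4 and 5 genes were called in Nemo/TNFR1 dKO, Nemo/TRAIL dKO and Nemo KO. Without WT replicate 2 the counts were 4, 5 and 5.

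Among the cell-surface receptors, Tlr1, the partner of TLR2 for triacylated lipoproteins, had the clearer change. It measured 6.48, 6.96 and 7.26 in Nemo/TNFR1 dKO, 7.13 in both Nemo/TRAIL dKO arrays, 6.95, 7.10 and 7.02 in Nemo KO and 5.76, 5.56 and 5.48 in WT. All 8 Nemo-deficient arrays lay above the WT arrays, and Nemo/TNFR1 dKO replicate 1 was the lowest of the 8. The difference from WT was 1.30 ± 0.17 (SE, adjusted p = 0.00174 by limma) in Nemo/TNFR1 dKO, 1.53 ± 0.19 (adjusted p = 0.00184) in Nemo/TRAIL dKO and 1.42 ± 0.17 (adjusted p = 0.00114, 2.68-fold) in Nemo KO. Tlr2 measured 7.01 in all 3 Nemo/TNFR1 dKO arrays, 6.91 and 7.06 in Nemo/TRAIL dKO, 7.17, 7.18 and 7.01 in Nemo KO and 6.71, 6.64 and 6.86 in WT. Its groups did not overlap with WT either, but the distance was smaller. It rose by 0.38 ± 0.08 in Nemo KO (adjusted p = 0.0148, 1.31-fold), whereas 0.28 ± 0.08 in Nemo/TNFR1 dKO (adjusted p = 0.0604) and 0.25 ± 0.09 in Nemo/TRAIL dKO (adjusted p = 0.134) did not pass. The call in Nemo KO was lost on leaving out WT replicate 2, Nemo KO replicate 1 or Nemo KO replicate 2 (adjusted p = 0.0534, 0.0527 and 0.0615 by limma). This call was also lost with only Nemo KO and WT in the fit (adjusted p = 0.0514 by limma). Tlr2 was also called in Nemo/TNFR1 dKO in 4 of 22 alternative fits: without WT replicate 3 (adjusted p = 0.0373), with either filter on low signal (0.0319 and 0.0456) and over single-symbol probe sets (0.0348).

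Of the LPS receptor complex, the signalling receptor Tlr4 rose in each Nemo-deficient genotype, while Ly96 and Cd14 lay near WT in Nemo/TNFR1 dKO and above it in the others. Tlr4 measured 5.97, 6.08 and 6.07 in Nemo/TNFR1 dKO, 6.01 and 6.12 in Nemo/TRAIL dKO, 6.02, 6.22 and 6.30 in Nemo KO and 5.25, 5.72 and 5.37 in WT. Its difference from WT was 0.59 ± 0.12 (adjusted p = 0.0153) in Nemo/TNFR1 dKO, 0.62 ± 0.14 (adjusted p = 0.0238) in Nemo/TRAIL dKO and 0.73 ± 0.12 (adjusted p = 0.00554, 1.66-fold) in Nemo KO. The WT arrays were all lower than the Nemo-deficient arrays, WT replicate 2 being the nearest to them. In Nemo KO the call held whichever array was left out. In Nemo/TRAIL dKO it was lost without WT replicate 1, WT replicate 3 or either Nemo/TRAIL dKO array (adjusted p up to 0.136), and in Nemo/TNFR1 dKO without its replicate 2 or 3 (adjusted p up to 0.0572).

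Ly96, whose product MD-2 holds the lipid part of LPS in the TLR4 complex, measured 9.28, 9.48 and 9.29 in Nemo/TNFR1 dKO, 9.55 and 10.02 in Nemo/TRAIL dKO, 9.66, 9.91 and 9.95 in Nemo KO and 9.32, 9.43 and 9.39 in WT. The Nemo/TNFR1 dKO arrays lay among or beside the WT arrays, and the other 5 Nemo-deficient arrays lay above both. The difference from WT was -0.03 ± 0.13 in Nemo/TNFR1 dKO (adjusted p = 0.922), 0.41 ± 0.14 in Nemo/TRAIL dKO (adjusted p = 0.13) and 0.46 ± 0.13 in Nemo KO (adjusted p = 0.0527), none of which passed. Cd14, the surface co-receptor that hands LPS to MD-2, had the same arrangement. It measured 5.88, 5.95 and 5.91 in Nemo/TNFR1 dKO, 6.62 and 6.12 in Nemo/TRAIL dKO, 6.30, 6.26 and 6.52 in Nemo KO and 5.85, 6.04 and 5.63 in WT. The WT arrays spanned the Nemo/TNFR1 dKO arrays and lay below all others. The difference from WT was 0.08 ± 0.14 in Nemo/TNFR1 dKO (adjusted p = 0.799), 0.53 ± 0.16 in Nemo/TRAIL dKO (adjusted p = 0.0788) and 0.52 ± 0.14 in Nemo KO (adjusted p = 0.0499, 1.43-fold). The Nemo KO value is thus just inside the threshold for Cd14 and just outside it for Ly96. Cd14 was called in Nemo KO in 7 of 21 alternative fits. Of the 11 that leave out 1 array, only those without WT replicate 2 or either Nemo/TRAIL dKO array kept this call, and adjusted p reached 0.162. Without Nemo/TRAIL dKO replicate 2, Cd14 was called in Nemo/TRAIL dKO as well (adjusted p = 0.0346), as it was over single-symbol probe sets (0.0388). Ly96 was called in Nemo KO in 9 of 22 alternative fits, among them those without Nemo KO replicate 1 or either Nemo/TRAIL dKO array, with adjusted p between 0.0216 and 0.165.

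Among the endosomal RNA sensors, Tlr7, Tlr8 and Tlr13 rose in each Nemo-deficient genotype and Tlr3 passed in none. Tlr7, the receptor for single-stranded RNA, measured 6.23, 6.62 and 6.56 in Nemo/TNFR1 dKO, 6.72 and 7.04 in Nemo/TRAIL dKO, 6.55, 6.84 and 7.13 in Nemo KO and 5.12, 5.28 and 5.50 in WT. The lowest Nemo-deficient array stood well above the highest WT array. Its difference from WT was 1.17 ± 0.17 (adjusted p = 0.00319) in Nemo/TNFR1 dKO, 1.58 ± 0.19 (adjusted p = 0.00178) in Nemo/TRAIL dKO and 1.54 ± 0.17 (adjusted p = 0.000909, 2.91-fold) in Nemo KO. Tlr8, its close relative and neighbour on the X chromosome, measured 7.16, 7.78 and 7.62 in Nemo/TNFR1 dKO, 7.65 and 7.68 in Nemo/TRAIL dKO, 7.32, 7.78 and 8.02 in Nemo KO and 6.35, 6.34 and 6.50 in WT. It too was separate from WT in all 8 arrays. Its difference was 1.13 ± 0.19 (adjusted p = 0.00589) in Nemo/TNFR1 dKO, 1.27 ± 0.21 (adjusted p = 0.00733) in Nemo/TRAIL dKO and 1.31 ± 0.19 (adjusted p = 0.00288, 2.49-fold) in Nemo KO. The calls of Tlr1 and Tlr7 against WT held in every alternative fit, and those of Tlr8 in all but Nemo/TRAIL dKO without its replicate 1 (adjusted p = 0.0597).

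Tlr13, the sensor of bacterial ribosomal RNA, measured 7.26, 7.95 and 8.21 in Nemo/TNFR1 dKO, 8.39 and 8.35 in Nemo/TRAIL dKO, 7.43, 7.81 and 8.05 in Nemo KO and 6.94, 6.30 and 6.22 in WT. The Nemo/TRAIL dKO arrays were the highest, and WT replicate 1 lay nearer to the Nemo-deficient arrays than the other two WT arrays did. The difference from WT was 1.32 ± 0.27 (adjusted p = 0.0147) in Nemo/TNFR1 dKO, 1.88 ± 0.30 (adjusted p = 0.00586, 3.69-fold) in Nemo/TRAIL dKO and 1.28 ± 0.27 (adjusted p = 0.0166) in Nemo KO. With a single array left out, the call held in 8, 10 and 7 of the 11 fits in the same order of genotypes. It was lost without WT replicate 2 in Nemo/TNFR1 dKO and Nemo KO, and without WT replicate 3 in Nemo KO. Otherwise it was lost without an array of the knockout itself, with adjusted p up to 0.0679. With only Nemo/TNFR1 dKO and WT in the fit, the Tlr13 call was lost as well (adjusted p = 0.0587 by limma). Tlr3, the receptor for double-stranded RNA that signals through TRIF in place of MyD88, measured 6.80, 7.14 and 7.17 in Nemo/TNFR1 dKO, 7.19 and 7.33 in Nemo/TRAIL dKO, 7.27, 7.22 and 7.29 in Nemo KO and 7.07, 6.95 and 6.78 in WT. The Nemo/TNFR1 dKO arrays overlapped with WT and the other Nemo-deficient arrays did not. Its difference from WT was 0.10 ± 0.11 (adjusted p = 0.637) in Nemo/TNFR1 dKO, 0.32 ± 0.12 (adjusted p = 0.163) in Nemo/TRAIL dKO and 0.32 ± 0.11 (adjusted p = 0.106) in Nemo KO. Without Nemo/TNFR1 dKO replicate 1 the last of these was called (adjusted p = 0.0425).

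Myd88, the adaptor that all the other receptors here except TLR3 use, measured 8.67, 8.75 and 8.88 in Nemo/TNFR1 dKO, 8.97 and 8.84 in Nemo/TRAIL dKO, 9.03, 8.75 and 8.92 in Nemo KO and 8.77, 8.85 and 8.94 in WT. All groups overlapped. The difference from WT was -0.09 ± 0.09 (95% interval -0.30 to 0.12, adjusted p = 0.621) in Nemo/TNFR1 dKO, 0.05 ± 0.10 (-0.18 to 0.29, adjusted p = 0.825) in Nemo/TRAIL dKO and 0.05 ± 0.09 (-0.16 to 0.26, adjusted p = 0.775) in Nemo KO. None of these intervals reaches the difference of any of the 5 receptors called in all genotypes.

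**Figure D2:**
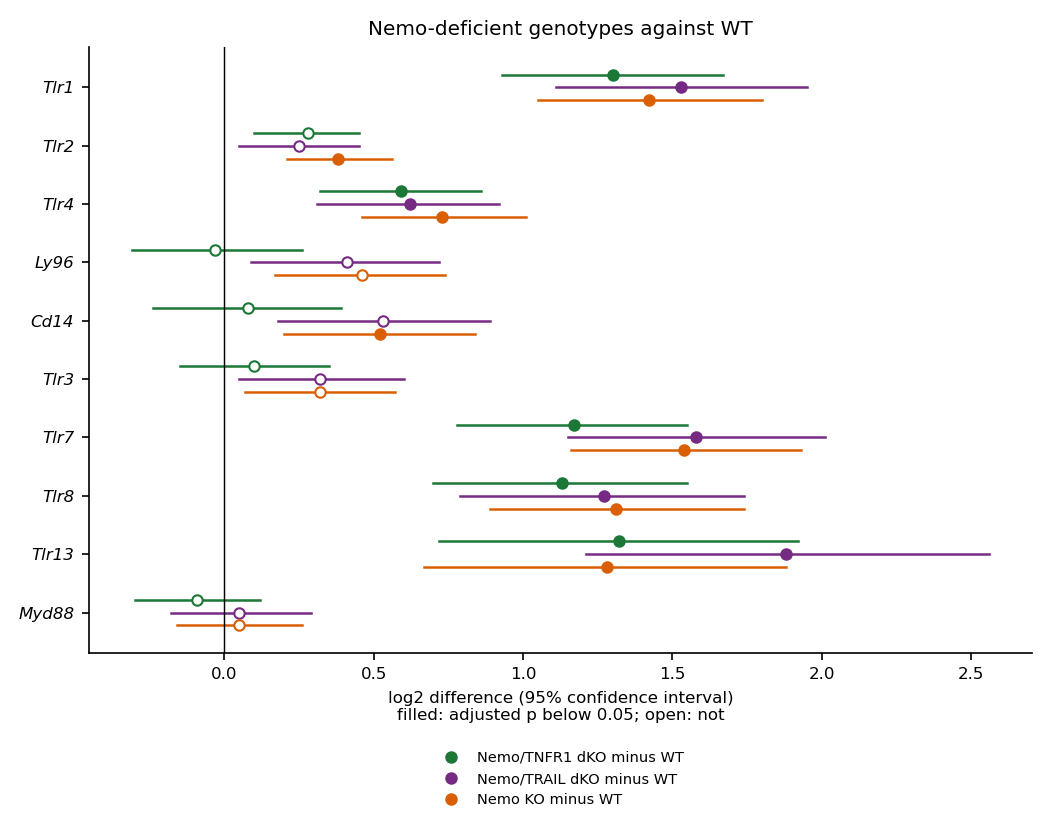
Difference from WT in log2 units (horizontal axis) for each gene, as points with 95% confidence intervals, in Nemo/TNFR1 dKO, Nemo/TRAIL dKO and Nemo KO, filled where the adjusted p was below 0.05. Tlr1, Tlr7, Tlr8 and Tlr13 lie between 1.13 and 1.88 in every genotype, Tlr4 between 0.59 and 0.73, and Myd88 at -0.09 to 0.05.

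The next questions were what added loss of TNFR1 or TRAIL changes in Nemo-deficient liver. None of the 10 genes passed in Nemo/TNFR1 dKO against Nemo KO (limma, background 0.0337% of probe sets called), although 2 had an unadjusted p below 0.05, against 6.86% of probe sets. These were Ly96, at -0.49 ± 0.13 (95% interval -0.77 to -0.20, adjusted p = 0.496 by limma), and Cd14, at -0.45 ± 0.14 (-0.76 to -0.13, adjusted p = 0.572 by limma). In both, the Nemo/TNFR1 dKO arrays all lay below the Nemo KO arrays, as they did for Tlr3 (-0.22 ± 0.11, adjusted p = 0.742). Such a separation downward was found in 5.84% of probe sets. Of the 10 genes 9 had a difference below 0, with a median of -0.17, against 0.02 over all genes. The exception was Tlr13, at 0.04 ± 0.27 (-0.56 to 0.64). The intervals for Tlr1 (-0.50 to 0.25) and Tlr8 (-0.62 to 0.24) exclude a fall as large as their rise in Nemo KO, and that for Tlr7 was -0.76 to 0.01.

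In Nemo/TRAIL dKO against Nemo KO no gene passed and none had an unadjusted p below 0.05 (limma, background 0.00562% called and 4.04% with an unadjusted p below 0.05). The median difference was 0.00. The largest was that of Tlr13, at 0.61 ± 0.30 (95% interval -0.06 to 1.28, adjusted p = 1 by limma), with both Nemo/TRAIL dKO arrays above all Nemo KO arrays. Tlr1 also stood higher in both arrays, by 0.11 ± 0.19, and such a separation upward was found in 8.97% of probe sets. For Ly96 and Cd14 the differences were -0.05 ± 0.14 and 0.01 ± 0.16.

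Nemo/TNFR1 dKO was then set against Nemo/TRAIL dKO, which tests whether the 2 added knockouts differ. No gene passed (limma, background 0.0478%), while 2 had an unadjusted p below 0.05, against 5.03% of probe sets. These were again Ly96 (-0.43 ± 0.14, 95% interval -0.75 to -0.12, adjusted p = 0.846 by limma) and Cd14 (-0.46 ± 0.16, -0.81 to -0.10, adjusted p = 0.889 by limma). The Nemo/TNFR1 dKO arrays lay below both Nemo/TRAIL dKO arrays for 5 genes, Ly96, Cd14, Tlr3, Tlr7 and Tlr13, as they did for 8.21% of probe sets. The Nemo/TNFR1 dKO arrays are the same in this comparison and in that with Nemo KO, so both rest on the same low values. In order of mean level, WT came last for the 5 receptors called everywhere and for Tlr2, Cd14 and Tlr3, Nemo/TNFR1 dKO for Ly96 and Myd88. No neighbours in these orders among the Nemo-deficient genotypes differed by the test.

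**Figure D3:**
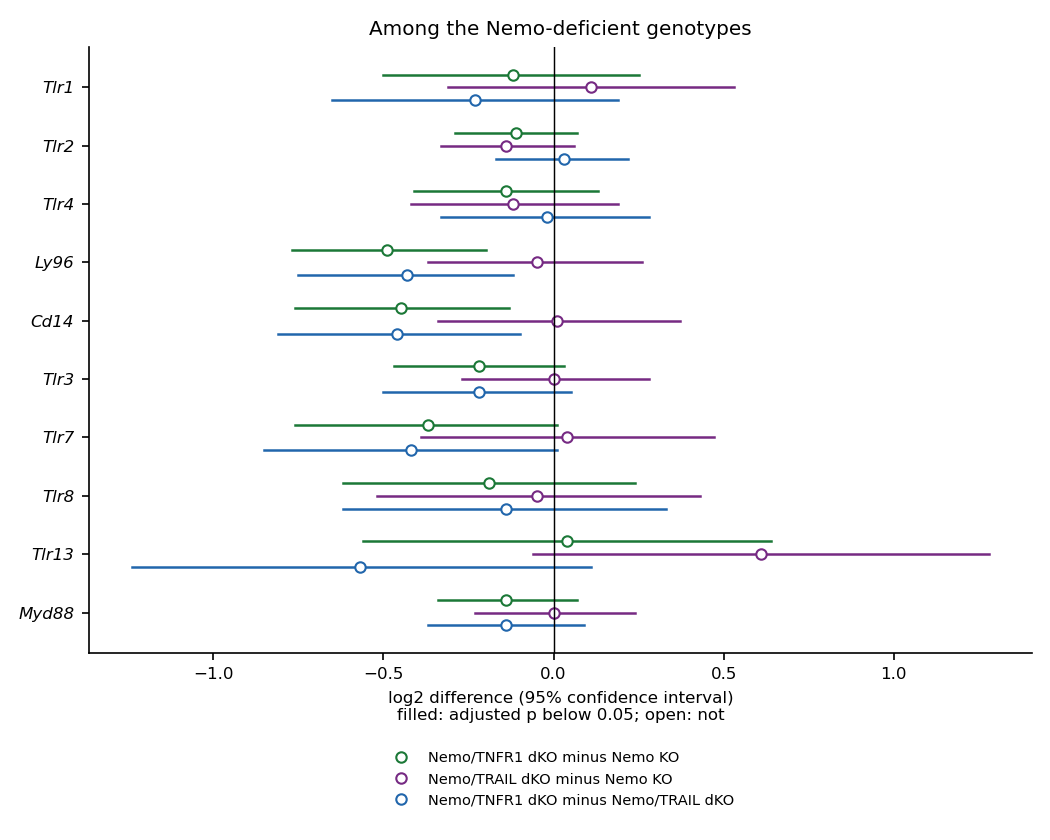
Differences in log2 units (horizontal axis) with 95% confidence intervals between Nemo/TNFR1 dKO and Nemo KO, Nemo/TRAIL dKO and Nemo KO, and Nemo/TNFR1 dKO and Nemo/TRAIL dKO. All points are open, as no adjusted p was below 0.05. The intervals of Ly96 and Cd14 lie below 0 in both comparisons that hold Nemo/TNFR1 dKO.

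The other genes of the pathway were taken from lists by role, of which 65 of 73 genes had a single-symbol probe set. Of the 65, 12 rose and 3 fell in Nemo/TNFR1 dKO against WT (median 0.04), 13 rose and 2 fell in Nemo/TRAIL dKO (median 0.03) and 12 rose and 4 fell in Nemo KO (median 0.11). Of all probe sets, 5.83%, 4.91% and 6.08% rose in these 3 comparisons, and 9.18%, 7.55% and 9.29% were called in either direction. Among the Nemo-deficient genotypes none passed (limma), and 6, 3 and 5 of the 65 had an unadjusted p below 0.05 in Nemo/TNFR1 dKO against Nemo KO, Nemo/TRAIL dKO against Nemo KO and Nemo/TNFR1 dKO against Nemo/TRAIL dKO. Over all probe sets this was 6.86%, 4.04% and 5.03%, so these counts lie near the background.

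Of 5 further receptors and partners with a probe set, 3 rose in each genotype against WT. Ly86, which encodes MD-1, the partner of the LPS response modifier RP105, rose by 1.23 ± 0.21 in Nemo/TNFR1 dKO, 1.36 ± 0.23 in Nemo/TRAIL dKO and 1.39 ± 0.21 in Nemo KO. Cd180, which encodes RP105, rose by 1.16 ± 0.15, 1.38 ± 0.17 and 1.33 ± 0.15 in the same order. Tlr9, the endosomal receptor for unmethylated CpG DNA, rose by 0.71 ± 0.12, 0.76 ± 0.13 and 0.75 ± 0.12. Tlr6, the paralogue of Tlr1 and another partner of TLR2, did not pass at 0.23 ± 0.12, 0.48 ± 0.13 and 0.36 ± 0.12. Tlr1 and Tlr6 are close relatives in sequence, and whether their probes are fully specific was not tested.

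Of 5 genes of LPS delivery and clearance, 1 rose and 1 fell in each genotype. Lbp, the plasma protein that extracts LPS and carries it to CD14, fell in every Nemo-deficient genotype. Its arrays measured 9.89 to 10.31 in Nemo/TNFR1 dKO, 10.38 and 10.40 in Nemo/TRAIL dKO, 10.47 to 10.56 in Nemo KO and 10.99 to 11.32 in WT. No groups overlapped. The difference from WT was -1.04 ± 0.11 (adjusted p = 0.000867) in Nemo/TNFR1 dKO, -0.76 ± 0.13 (adjusted p = 0.00728) in Nemo/TRAIL dKO and -0.64 ± 0.11 (adjusted p = 0.00769) in Nemo KO, while Nemo/TNFR1 dKO minus Nemo KO gave -0.40 ± 0.11 (adjusted p = 0.507). Aoah, the enzyme that removes acyl chains from LPS, rose in Nemo KO (0.96 ± 0.18, adjusted p = 0.0113), and had 0.47 ± 0.18 in Nemo/TNFR1 dKO (adjusted p = 0.162) and 0.77 ± 0.21 in Nemo/TRAIL dKO (adjusted p = 0.0543). Casp4, the cytosolic LPS sensor caspase-11, rose in Nemo/TNFR1 dKO (0.51 ± 0.13, adjusted p = 0.0411) and Nemo/TRAIL dKO (0.87 ± 0.15, adjusted p = 0.00807), with 0.23 ± 0.13 in Nemo KO (adjusted p = 0.32).

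Of 6 chaperones and trafficking genes, Unc93b1, which escorts the nucleic acid receptors to endosomes, rose by 0.39 ± 0.08 in Nemo/TNFR1 dKO, 0.43 ± 0.09 in Nemo/TRAIL dKO and 0.42 ± 0.08 in Nemo KO. Slc15a3, an endolysosomal peptide and histidine transporter, rose by 1.45 ± 0.11, 1.34 ± 0.13 and 1.22 ± 0.11 in that order. Cnpy3, a folding factor for several Toll-like receptors, fell in Nemo KO (-0.47 ± 0.09, adjusted p = 0.00879), with -0.17 ± 0.09 in Nemo/TNFR1 dKO and -0.33 ± 0.10 in Nemo/TRAIL dKO. Of 15 adaptors and kinases 2 rose in each genotype and none fell: Syk by 0.63 ± 0.10, 0.67 ± 0.12 and 0.70 ± 0.10, and Pik3ap1 by 0.45 ± 0.09, 0.56 ± 0.10 and 0.46 ± 0.09, in Nemo/TNFR1 dKO, Nemo/TRAIL dKO and Nemo KO. Both act mainly in leukocytes. The list's median lay between -0.09 and 0.01, and the TIR-domain adaptors Ticam1, Ticam2 and Tirap did not pass in any comparison with WT.

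Of 8 transcription factors 3 rose in each genotype and none fell. Spi1, which encodes the myeloid factor PU.1, rose by 1.08 ± 0.10 in Nemo/TNFR1 dKO, 1.04 ± 0.12 in Nemo/TRAIL dKO and 1.04 ± 0.10 in Nemo KO. Irf7, which drives type I interferon genes, rose by 1.02 ± 0.20, 1.30 ± 0.23 and 1.09 ± 0.20, and Irf8 by 0.84 ± 0.14, 0.79 ± 0.16 and 0.96 ± 0.14. Of 10 negative regulators none rose. The deubiquitinase Cyld fell in Nemo/TNFR1 dKO (-0.31 ± 0.07, adjusted p = 0.0266 by limma) and Nemo KO (-0.26 ± 0.07, adjusted p = 0.0491 by limma). In Nemo/TRAIL dKO the difference of Cyld was also -0.26 and did not pass. Of 16 genes that LPS induces in macrophages, the chemokine Ccl3 rose by 1.48 ± 0.30, 1.49 ± 0.33 and 1.60 ± 0.30 in the 3 genotypes. Cxcl10 rose in Nemo/TRAIL dKO (0.99 ± 0.19, adjusted p = 0.0134 by limma) and was not called in the other genotypes. Its arrays there also lay above WT, at 6.84 to 7.33 in Nemo/TNFR1 dKO and 6.98 to 7.53 in Nemo KO. The WT arrays lay at 6.67 to 6.78. Saa3, an acute-phase amyloid gene, fell by 1.10 ± 0.10 in Nemo/TNFR1 dKO, 0.98 ± 0.11 in Nemo/TRAIL dKO and 1.12 ± 0.10 in Nemo KO. The largest difference of the list in Nemo/TRAIL dKO and Nemo KO was that of Lcn2, the siderophore-binding lipocalin, which did not pass. It ranged from 8.62 to 9.44 in Nemo/TNFR1 dKO, 9.98 to 10.43 in Nemo/TRAIL dKO, 9.67 to 10.38 in Nemo KO and 7.37 to 9.49 in WT. Its difference from WT was 0.77 ± 0.47 in Nemo/TNFR1 dKO (adjusted p = 0.379), 1.93 ± 0.53 in Nemo/TRAIL dKO (adjusted p = 0.0575) and 1.69 ± 0.47 in Nemo KO (adjusted p = 0.0543). The Nemo/TNFR1 dKO arrays all lay below those of Nemo/TRAIL dKO (-1.17 ± 0.53, adjusted p = 0.991) and of Nemo KO (-0.92 ± 0.47, adjusted p = 0.745), and overlapped with WT. The cytokines Tnf (0.14 ± 0.07, 0.00 ± 0.08 and 0.13 ± 0.07) and Il1b (-0.08 ± 0.18, -0.03 ± 0.20 and 0.26 ± 0.18) did not pass in any of them. The median of this list was 0.02 in Nemo/TNFR1 dKO, -0.04 in Nemo/TRAIL dKO and 0.07 in Nemo KO. Its mean level was 5.50 to 5.81 over the arrays, below the median probe-set mean of 6.29. Tnf and Il1b lay below that median in every group, while Lcn2, Cxcl1 and Cxcl10 lay above it. Small differences are harder to resolve at low signals, so values near 0 do not show that such genes were unchanged.

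**Figure D4:**
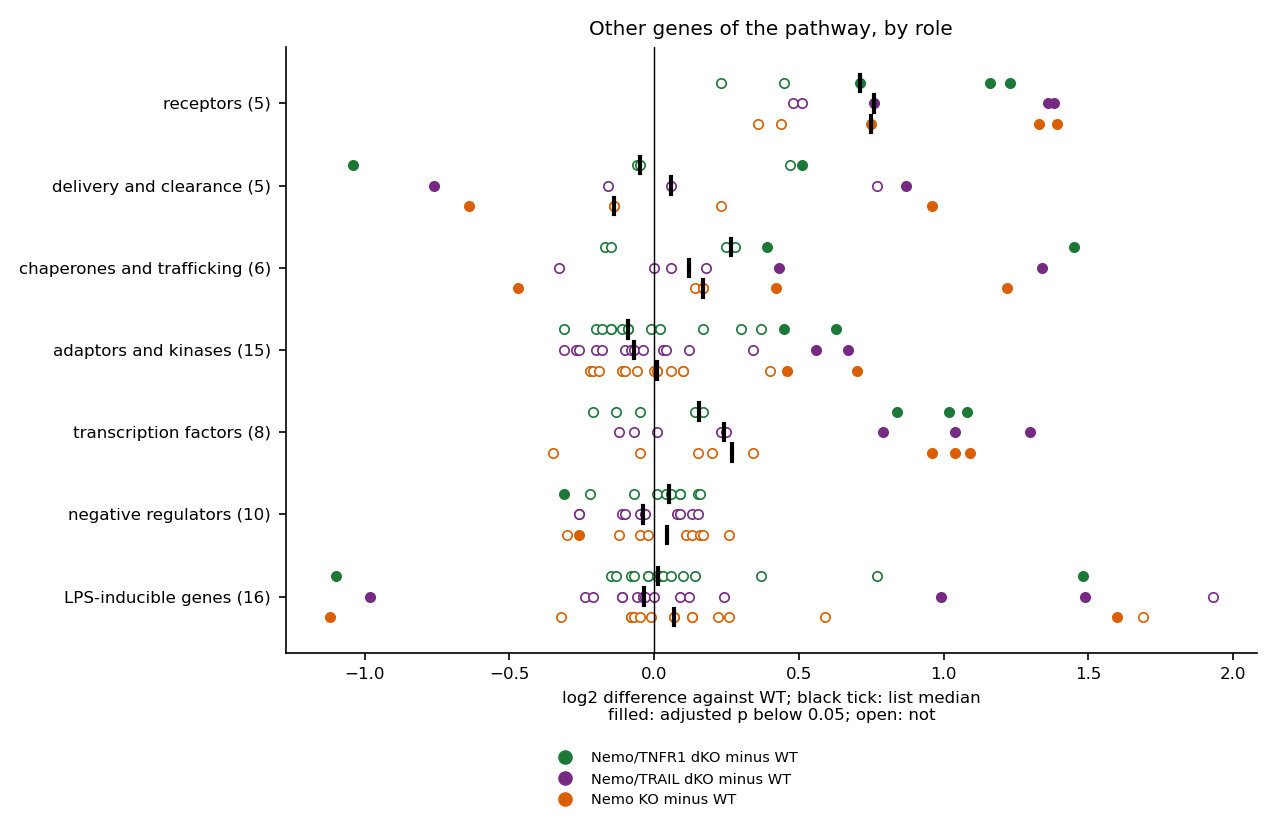
Differences from WT in log2 units (horizontal axis) of the 65 other pathway genes by role, with the number measured in brackets, for Nemo/TNFR1 dKO, Nemo/TRAIL dKO and Nemo KO. Points are genes, filled where the adjusted p was below 0.05, and black ticks are list medians. Receptors have medians of 0.71 to 0.76, and adaptors and kinases of -0.09 to 0.01.

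Most measured markers of monocytes and macrophages, of plasmacytoid dendritic cells and of stellate cells also rose against WT. Of 8 measured monocyte and macrophage markers 7 rose in each Nemo-deficient genotype against WT, with medians of 1.03 in Nemo/TNFR1 dKO, 1.19 in Nemo/TRAIL dKO and 1.36 in Nemo KO. The mean of the 8 markers was 7.88 to 8.38 in Nemo/TNFR1 dKO arrays, 8.21 to 8.40 in Nemo/TRAIL dKO, 8.27 to 8.43 in Nemo KO and 7.10 to 7.12 in WT. The array at 7.88 was Nemo/TNFR1 dKO replicate 1, which also had the lowest value among Nemo-deficient arrays of every member except Tlr2, Myd88 included. Of 9 Kupffer cell markers, 4 rose and none fell in Nemo/TNFR1 dKO, 3 rose and 2 fell in Nemo/TRAIL dKO and 4 rose and 1 fell in Nemo KO. The macrophage surface receptor gene Adgre1 rose by 0.98 ± 0.11, 0.89 ± 0.13 and 1.06 ± 0.11, and the haemoglobin scavenger receptor Cd163 had -0.66 ± 0.19 (adjusted p = 0.0677), -1.06 ± 0.22 (adjusted p = 0.0175) and -1.35 ± 0.19 (adjusted p = 0.00278) in the 3 genotypes. Of 4 plasmacytoid dendritic cell markers 3, 3 and 4 rose, with group ranges of the mean of 7.59 to 7.75, 7.65 to 7.80, 7.65 to 7.75 and, in WT, at most 7.14. Bst2 and Tcf4 of that list are also expressed in other liver cells. Of 6 stellate cell markers 5, 4 and 5 rose, with means of 9.37 to 9.60, 9.27 to 9.37, 9.42 to 9.74 and, in WT, 8.56 to 8.60. Pdgfrb, the platelet-derived growth factor receptor of stellate cells, rose by 1.38 ± 0.20, 1.38 ± 0.22 and 1.61 ± 0.20. Of 8 T and NK cell markers 3, 1 and 1 rose, with means of 5.66 to 5.94, 5.65 to 5.67, 5.49 to 5.74 and, in WT, 5.39 to 5.46. The cytotoxic granule gene Nkg7 rose by 1.10 ± 0.17, 0.94 ± 0.19 and 0.72 ± 0.17, and the CD3 chain genes Cd3g (0.86 ± 0.17) and Cd3e (0.48 ± 0.13) rose in Nemo/TNFR1 dKO. The other T cell genes of the list did not pass there: Cd3d (0.02 ± 0.07), Cd4 (0.03 ± 0.12) and Cd8a (0.23 ± 0.07, adjusted p = 0.0697 by limma). Of 7 sinusoidal endothelial markers, Lyve1 rose in Nemo/TNFR1 dKO (0.80 ± 0.14) and Nemo/TRAIL dKO (0.83 ± 0.16), and Kdr fell in Nemo/TRAIL dKO (-0.41 ± 0.09). Of 4 cholangiocyte markers, Epcam rose in Nemo/TRAIL dKO (1.03 ± 0.24), with 0.61 ± 0.22 in Nemo/TNFR1 dKO (adjusted p = 0.124) and 0.79 ± 0.22 in Nemo KO (adjusted p = 0.0529). None of 9 neutrophil markers or 5 B cell markers passed against WT (limma). At most 1 of each list had an unadjusted p below 0.05 in any comparison. The means of both lists lay below the median probe-set mean of 6.29 in every array, although the B cell gene Cd79b lay above it. Small differences are harder to resolve at such signals, so these lists do not show that neutrophils or B cells were unchanged. The part of any of the listed cell types in the receptor differences was not tested.

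**Figure D5:**
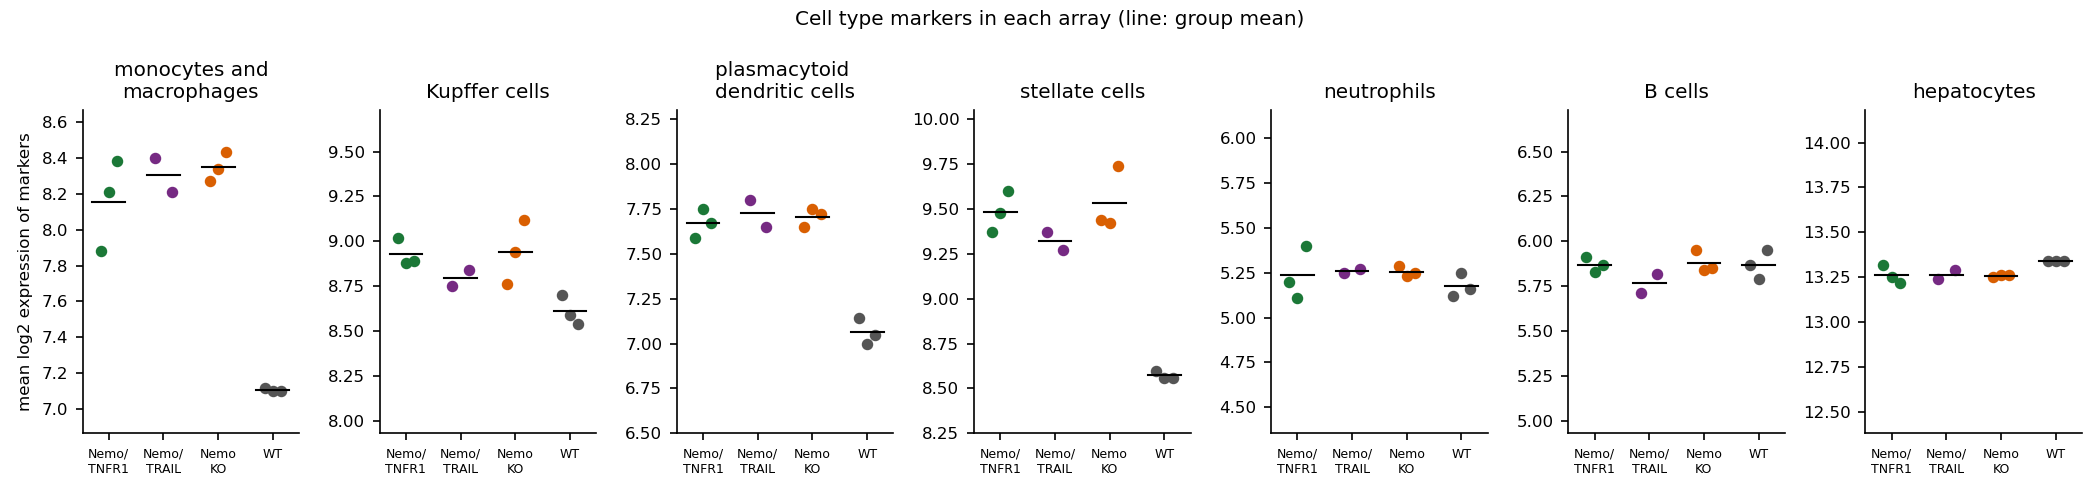
Mean log2 expression of the measured markers of 7 cell types (vertical axes, each spanning the same range) in each array, as points with the group mean as a line, for Nemo/TNFR1 dKO, Nemo/TRAIL dKO, Nemo KO and WT. Monocyte and macrophage markers lie at 7.88 to 8.43 in the Nemo-deficient arrays and at 7.10 to 7.12 in WT, stellate cell markers at 9.27 to 9.74 and 8.56 to 8.60, hepatocyte markers at 13.22 to 13.32 and 13.34, and neutrophil and B cell markers overlap with WT.

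Within the group, the profiles over the 11 arrays were most alike for Tlr7 and Tlr8 (Pearson correlation 0.98, given as a description, since the arrays fall into WT and Nemo-deficient sets and share normalisation). Tlr1 followed with Tlr13 and with Tlr8 (0.95 each), and Myd88 was little related to Tlr4 (0.02). Among 18701 other genes, the profiles nearest to Tlr7 were those of Ms4a6c, Cd200r1 and Ints6l (0.98 each). Nearest to Tlr8 were Mfge8 and Anxa2 (0.99 each) and Ints6l, to Tlr1 Mgat5, Apaf1 and Tbc1d19 (0.99 each), and to Tlr13 Golm1 and Fgr (0.97 each) and Gdpd1. Tlr4 was nearest to Cd300c2 and Gramd1a (0.98 each) and then to Ly86 (0.97). The nearest profiles were less close for Tlr3 (Skap2, 0.95), Tlr2 (Plagl1, 0.94), Cd14 (Exog, 0.91) and Ly96 (Pcgf6, 0.90). For Myd88 the nearest was Slc9a3 (0.96), which differed by 0.03 between Nemo KO and WT.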

How the data were processed

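Expression was deposited as log2 values for 35556 probe sets on 11 arrays, computed by the authors with RMA, per the submitters' processing notes. Its version was not given there. RMA equalises the distributions of the arrays (medians 6.26 to 6.32), so a change shared by most genes would not show. No further normalisation was applied. Probe sets were named by the platform annotation, updated to RefSeq symbols by gene ID: 21789 had 1 symbol (21698 matched in RefSeq), and the brightest probe set stood for a gene. Precision is limited by how many arrays there are.

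With R 4.3.3 and limma 3.58.1, 1 mean per genotype was fitted to all arrays (residual degrees of freedom 7, prior 2.51). P-values were two-sided and adjusted by Benjamini-Hochberg over all probe sets within each of 6 comparisons. They measure only the spread between these samples. The fit was tested on simulated data. All 10 genes had a mean above the 25th percentile of probe-set means and 8 above the median. The members and lists were chosen with earlier results of these data known, and the motifs after the differences were seen. All 10 members were named, up to 3 called genes per list and up to 3 nearest profiles per gene, and further genes were named as examples after their values were seen. Promoters come from RefSeq (GRCm38.p6). As alternatives, each array was left out in turn, only the 2 groups compared were fitted, low signals were filtered in 2 ways, and array weights, median centring, quantile normalisation, robust moderation, a variance trend, a replicate block, single-symbol probe sets or averaged probe sets were used.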

Additional observations from a re-analysis of the deposited data

How the results depend on the processing

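No member changed direction while called in any of the alternatives. Leaving out 1 array at a time gave 3 to 6 called genes in Nemo/TNFR1 dKO against WT (5 with all arrays), 2 to 5 for Nemo/TRAIL dKO against WT (5), and 4 to 8 for Nemo KO against WT (7). Where a single Nemo/TRAIL dKO array was left, it was assumed to vary like the other groups. With only the 2 groups in the fit, Nemo/TNFR1 dKO against WT had 3 called genes, with fewer arrays to estimate the spread. Among the remaining alternatives the count was 4 to 6 for Nemo/TRAIL dKO against WT, and 6 to 8 for Nemo KO against WT. In the 3 comparisons among Nemo-deficient genotypes, 0 genes were called by limma under every alternative, while 2, 0 and 2 had an unadjusted p below 0.05 with all arrays. Averaging the probe sets of a gene changed nothing, since each member has 1. A filter at the median removed Tlr4 and Cd14. With replicate numbers as a replicate block, 5, 5 and 7 genes were called in Nemo/TNFR1 dKO, Nemo/TRAIL dKO and Nemo KO against WT, as without it. Ly96 was then called in Nemo KO (adjusted p = 0.0239) and Cd14 was not (adjusted p = 0.0937). Deviations from the group means correlated at -0.117 to 0.0435 between same-numbered arrays of different groups, and at -0.164 to 0.164 between differently numbered ones. With so few arrays per group, this cannot decide whether same-numbered arrays shared anything beyond the number. Both Tlr4 and Cd14 lie below the median signal, as Tlr1 and Tlr7 do in WT, and small differences are harder to resolve there.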
